A study of Mus musculus with 24 samples.

Results

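The genes described here encode the core of the spindle assembly checkpoint and the Aurora kinases: *Bub1*, *Bub1b*, *Bub3*, *Mad2l1*, *Mad1l1*, *Ttk*, *Aurka*, *Aurkb*, *Aurkc* and *Incenp*. They were listed by name, with earlier results of these data known, and no measured value entered the rule. All 10 were found among the 16572 gene names of the RNA-seq table, each in 1 row. The study grew mouse oocytes in vitro at 2 oxygen concentrations and compared their transcriptomes and DNA methylation. Its 24 samples included 4 RNA-seq libraries, which are the experiment analysed here. Oocytes of all groups came from ovaries of mice at 7 days of age, which were digested with trypsin and collagenase and plated on gelatine, and oocytes labelled 60 to 70 µm (class IV) were collected after 9 days in 5% O2 (IV 5% O2) or after 14 days in 20% O2 (IV 20% O2). The labels give the strain as C57BL/6 Barb, whereas the study's methods describe a cross of C57 Black6 with SV129 mice for the culture.

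The limits of the groups bear on every value below. Each library was made from a pool of oocytes, there were 2 libraries per condition, and the table holds 1 value per gene and condition. No spread between libraries could therefore be had and no difference was tested between conditions. Fold values carry exact 95% Clopper-Pearson intervals of the read ratio and levels carry exact 95% Poisson intervals, while a shift in the ratio between a pair of members carries a 95% interval from a normal approximation on the log scale to the counting error of its reads. They cover counting error only, so they compare the sequenced material and not the conditions. Reads were sequenced as pairs, and whether the mates of a pair were counted apart is not given in the sources used here, which could make the intervals too narrow. Oxygen, days in culture and the interval of medium change differed together and cannot be told apart. The size range that the study's text gives for the largest oocytes in 20% O2 is also lower than the one in the labels. In pools of this kind, fewer cells of a type and less RNA per cell cannot be told apart.

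The spindle assembly checkpoint delays anaphase until the chromosomes are attached to microtubules. At unattached kinetochores the kinase Ttk (Mps1) starts the signal, Bub1 and Bub3 are recruited, and Mad1 bound to Mad2 serves as the template on which further Mad2 changes shape. Mad2, BubR1 (the product of *Bub1b*), Bub3 and Cdc20 then form the mitotic checkpoint complex, which inhibits the anaphase-promoting complex or cyclosome (APC/C). Aurora B and Aurora C act within the chromosomal passenger complex, whose scaffold is Incenp, and correct faulty attachments, whereas Aurora A works mainly at spindle poles. Oocytes store transcripts during growth for use in the meiotic divisions, and Aurora C is known mainly from germ cells.

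Promoters of 4 members are shown because these genes span the range of differences below: *Mad1l1* and *Bub1b* had the largest, *Ttk* lay between, and *Mad2l1* was the only member that was not higher in IV 5% O2 oocytes. Each is the 250 bases before the RefSeq transcription start (GRCm38.p6), 5′ to 3′ on the strand of the gene, with every CCAAT box (CCAAT, or ATTGG where it lies on the other strand) in capitals.
Bub1b, chr2:118597961-118598210, plus strand: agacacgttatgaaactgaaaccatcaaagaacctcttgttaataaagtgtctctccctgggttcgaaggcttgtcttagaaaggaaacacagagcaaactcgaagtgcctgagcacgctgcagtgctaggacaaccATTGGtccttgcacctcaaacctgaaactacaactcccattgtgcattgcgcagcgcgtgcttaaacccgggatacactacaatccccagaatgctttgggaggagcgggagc
Ttk, chr9:83834439-83834688, plus strand: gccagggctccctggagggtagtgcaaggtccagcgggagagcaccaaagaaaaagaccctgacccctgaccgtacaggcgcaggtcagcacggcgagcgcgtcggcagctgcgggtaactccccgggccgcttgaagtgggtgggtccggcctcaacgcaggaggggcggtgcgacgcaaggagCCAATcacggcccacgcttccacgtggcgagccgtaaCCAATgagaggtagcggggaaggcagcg
Mad1l1, chr5:140321553-140321802, minus strand: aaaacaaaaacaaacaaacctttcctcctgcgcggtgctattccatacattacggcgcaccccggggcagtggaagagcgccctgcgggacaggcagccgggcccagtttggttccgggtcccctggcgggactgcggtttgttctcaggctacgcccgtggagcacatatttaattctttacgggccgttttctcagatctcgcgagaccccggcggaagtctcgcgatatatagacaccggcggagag
Mad2l1, chr6:66534971-66535220, plus strand: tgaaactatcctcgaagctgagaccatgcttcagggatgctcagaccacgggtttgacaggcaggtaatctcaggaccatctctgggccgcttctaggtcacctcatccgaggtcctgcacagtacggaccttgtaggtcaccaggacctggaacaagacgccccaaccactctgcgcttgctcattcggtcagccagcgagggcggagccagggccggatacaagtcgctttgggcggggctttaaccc

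The RefSeq promoter table held 8 of the 10 members, all but *Aurkb* and *Incenp*. A CCAAT box, searched on both strands, lay in 6 of the members' 10 windows, compared with 33.8% of all 32851 windows of the table. These windows belong to *Bub1*, *Bub1b*, *Bub3*, *Ttk* and *Aurka*, and the pair of *Bub3* windows overlap and hold the same boxes. The *Bub1b* box lay 113 bases before the start and the *Ttk* boxes lay 65 and 28 bases before it. The cell cycle genes homology region (CHR) was searched only as TTTGAA, or TTCAAA on the other strand, and other forms of it were not searched. This form was found in 2 of the 10 windows, both of *Bub3* and with the same match, 43 bases before its first start site, and in 16.0% of all windows. These are matches of letters and not measured binding sites, and genes with a box were found both near the top of the differences (*Bub1b*) and near the bottom (*Bub3* and *Aurka*).

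The transcriptome was sequenced more deeply in IV 5% O2 oocytes. The values were divided by totals of 132185259 reads in IV 5% O2 and 40875359 in IV 20% O2 oocytes, as recovered from the steps between the values. Reads over all listed genes summed to 109629353 and 29754908, a larger share of the total in IV 5% O2 oocytes. The part of this share in the differences below was not tested. A value of 3 reads corresponded to 0.0227 and 0.0734 RPM, that is, reads scaled to a common library size of 1000000. Every member was far above that limit, with 3455 to 166421 reads in IV 5% O2 oocytes and 524 to 22850 in IV 20% O2 oocytes. All 10 oocyte markers examined were detected in both columns, with a summed level of 9292 RPM in IV 5% O2 against 13266 RPM in IV 20% O2 oocytes, and 3 of them (*Kit*, *Zp2* and *Zp3*) were at least 2-fold lower in IV 5% O2 oocytes (9.22% of all genes tested were). A difference is given below as log2(RPM + 1) in IV 5% O2 minus the same in IV 20% O2, over 14704 genes whose mean RPM was 1 or more, and a gene is counted as different at 2-fold or more on this scale. The median of these genes was 0.26 above 0 (log2), so each member is also given relative to it.

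Transcripts of 9 of the 10 members were higher in IV 5% O2 than in IV 20% O2 oocytes, against a background of 62.6% of all genes tested, and 9 lay above the median gene. The difference reached 2-fold for 3 members, *Mad1l1*, *Bub1b* and *Aurkc*, while 18.7% of all genes tested were at least 2-fold higher. No member was 2-fold lower, compared with 9.22% of all genes. The median log2 difference of the members was 0.74, which is 0.49 above the median gene. With the columns rescaled by their median ratio or by quantile normalization, 9 members were still higher (background 48.7% and 52.6%), but the 2-fold difference was left for 1 of them, *Mad1l1* (background 12.0% and 12.2%).

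**Figure D1:**
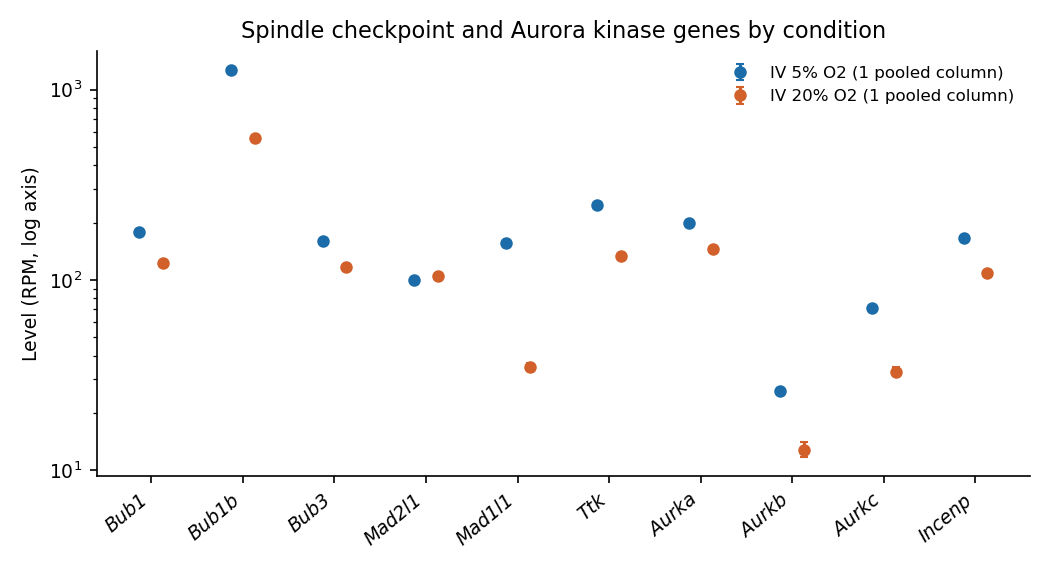
Level of each member in RPM (log axis) in the pooled column of IV 5% O2 oocytes (blue) and of IV 20% O2 oocytes (orange), with exact 95% Poisson intervals that are mostly smaller than the points. The largest gap between the columns is that of *Mad1l1* (155.8 against 34.8 RPM), and *Mad2l1* is the one gene whose points lie level (100.2 against 104.5 RPM).

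*Mad1l1* (chromosome 5, 140008689 to 140321552, minus strand, GRCm38) encodes Mad1, which anchors Mad2 at the kinetochore. It was measured at 155.8 RPM in IV 5% O2 oocytes (20595 reads) against 34.8 RPM in IV 20% O2 oocytes (1422 reads). This 4.48-fold difference (4.24 to 4.73) was the largest of the members and higher than that of 98.2% of all genes tested. On the log2 scale it was 2.13, or 1.87 above the median gene. The gene shares 37 exonic bases with the antisense gene *Gm16121*, which itself was listed at 2.06 and 0.636 RPM, far below *Mad1l1* in both columns.

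*Mad2l1* (chromosome 6, 66535390 to 66547220, plus strand) encodes Mad2, the partner of Mad1 and part of the inhibitor of the APC/C. Its levels were 100.2 RPM in IV 5% O2 (13239 reads) against 104.5 RPM in IV 20% O2 oocytes (4271 reads), a ratio of 0.959 (0.926 to 0.992). The log2 difference was -0.06, or -0.32 relative to the median gene. The transcripts of these binding partners therefore stood in different proportions in the 2 columns: *Mad1l1* reads were 1.56 times those of *Mad2l1* in IV 5% O2 oocytes and 0.333 times in IV 20% O2 oocytes, a 4.67-fold shift (4.38 to 4.98). A ratio within a column is not changed when the column is multiplied by a single factor, as in median-ratio scaling.

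*Bub1b* (chromosome 2, 118598211 to 118641591, plus strand) encodes BubR1, the pseudokinase of the mitotic checkpoint complex. It was the most abundant member in both columns, at 1259 RPM in IV 5% O2 (166421 reads) against 559.0 RPM in IV 20% O2 oocytes (22850 reads). The 2.25-fold difference (2.22 to 2.28) corresponded to 1.17 on the log2 scale and to 0.91 relative to the median gene. *Bub1b* alone made up 49.2% of the summed RPM of the members in IV 5% O2 and 40.8% in IV 20% O2 oocytes. The summed level was 2561 against 1371 RPM, 1.87-fold, and without *Bub1b* it was 1302 against 812.1 RPM, 1.60-fold.

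The other members that act upstream at the kinetochore differed less. *Bub1* (chromosome 2, 127801122 to 127831865, minus strand), the kinase that marks the centromere for shugoshin and the passenger complex, was at 178.9 RPM in IV 5% O2 against 123.1 RPM in IV 20% O2 oocytes, 1.45-fold higher (1.41 to 1.499). *Bub3* (chromosome 7, 131560222 to 131571895, plus strand), which carries Bub1 and BubR1 to the kinetochore, was at 159.9 and 117.0 RPM, 1.37-fold higher (1.32 to 1.41). Relative to the median gene these were log2 differences of 0.28 and 0.19. The kinase gene *Ttk* (chromosome 9, 83834689 to 83872389, plus strand) was at 246.4 and 133.6 RPM, 1.84-fold higher (1.79 to 1.90) and 0.62 above the median gene. *Bub1* and *Bub3* kept nearly the same proportion in both columns (ratio of reads 1.12 and 1.05). The shift was 1.06-fold, and its interval (1.02 to 1.11) did not include no shift. The reads of *Bub1b* per read of *Bub3* were 7.87 in IV 5% O2 and 4.78 in IV 20% O2 oocytes, a 1.65-fold shift (1.59 to 1.70).

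Of the Aurora kinases, the gene of the spindle pole kinase, *Aurka* (chromosome 2, 172356190 to 172370535, minus strand), was the most abundant and differed least. It was at 198.4 RPM in IV 5% O2 against 145.4 RPM in IV 20% O2 oocytes, 1.36-fold higher (1.33 to 1.40) and 0.19 (log2) above the median gene. *Aurkb* (chromosome 11, 69045647 to 69051664, plus strand), the catalytic subunit of the passenger complex in somatic cells, was the least abundant member, at 26.1 RPM (3455 reads) and 12.8 RPM (524 reads). Its RPM ratio was 2.04 (1.86 to 2.24), but its difference on the log2(RPM + 1) scale was 0.97, just short of the 2-fold limit, and just inside it was *Aurkc* at 1.09. *Aurkc* (chromosome 7, 6995300 to 7003091, plus strand), the germ cell paralog, was at 70.9 RPM (9369 reads) and 32.9 RPM (1343 reads), 2.16-fold higher (2.04 to 2.29). Relative to the median gene, *Aurkb* was at 0.72 and *Aurkc* at 0.83 (log2).

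The reads of *Aurkc* per read of *Aurkb* were 2.71 in IV 5% O2 and 2.56 in IV 20% O2 oocytes, and the interval of the shift included no shift (1.06-fold, 0.9495 to 1.18). Both paralogs moved against *Aurka*, by 1.58-fold for *Aurkc* (1.48 to 1.69) and 1.49-fold for *Aurkb* (1.36 to 1.65). *Incenp* (chromosome 19, 9872296 to 9899551, minus strand), the scaffold that binds and activates Aurora B and Aurora C, was at 165.6 and 108.0 RPM, 1.53-fold higher (1.48 to 1.58) and 0.35 (log2) above the median gene. Its reads per *Aurkc* read were 2.34 in IV 5% O2 and 3.29 in IV 20% O2 oocytes, a 0.710-fold shift (0.665 to 0.759).

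The value of *Aurkc* is uncertain because of near-identical copies. Of windows of 50 bases along its exons, 57.0% occurred elsewhere in the genome, and of windows of 100 bases 35.2%, whereas no other member exceeded 1.78% and 0%. At 50 bases 10 pseudogenes matched it and at 100 bases 3 did, none of them in the table. How reads that fit several places were handled is not given in the sources used here. The stretch below, 100 coding bases, identical in both and so without capitals, shows the case of the processed pseudogene *Gm12463*.
Aurkc, chr7:6997544-6997643, plus strand: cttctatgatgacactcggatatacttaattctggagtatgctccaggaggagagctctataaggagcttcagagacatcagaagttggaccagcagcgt
Gm12463, chr4:44752781-44752880, minus strand: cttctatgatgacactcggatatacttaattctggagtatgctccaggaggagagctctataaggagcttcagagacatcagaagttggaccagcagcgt
Without *Aurkc*, 2 of the other members were 2-fold higher and the median log2 difference was 0.61.

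**Figure D2:**
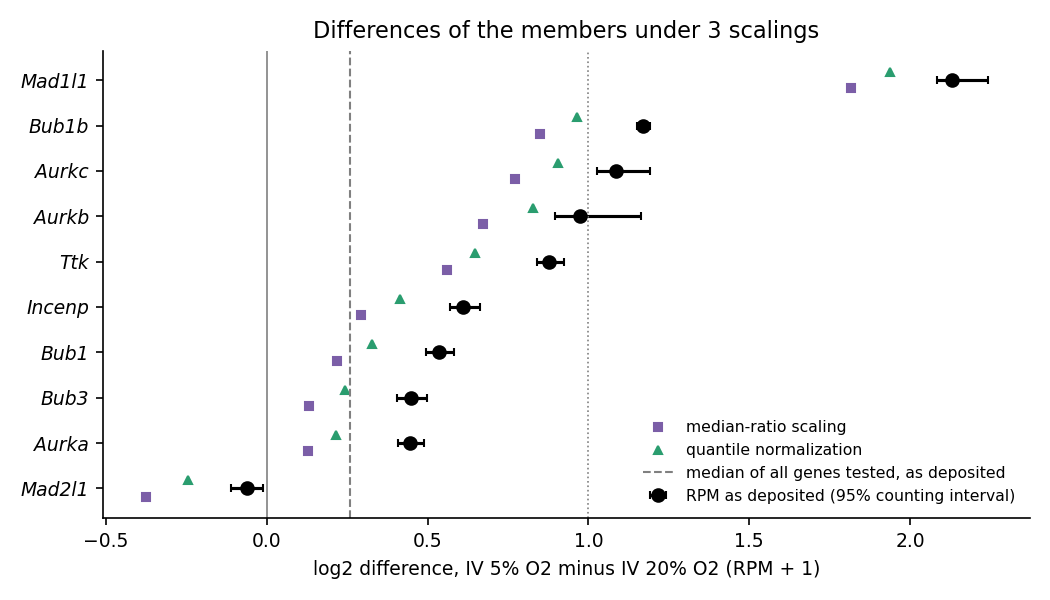
Difference of each member between IV 5% O2 and IV 20% O2 oocytes (log2 of RPM + 1), as deposited with the 95% counting interval of the read ratio (black circles), after median-ratio scaling (purple squares) and after quantile normalization (green triangles). The dashed line is the median of all genes tested (0.26) and the dotted line is 2-fold. Under each of the 3 scalings *Mad2l1* lies left of 0 and the other 9 members right of it, and *Mad1l1* is past the dotted line in all.

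Levels of different genes were compared as RPM per kb of exon. In IV 5% O2 oocytes *Bub1b* was first at 294.5 RPM per kb, followed by *Aurka* (78.4), *Ttk* (50.1), *Aurkc* (46.5), *Mad1l1* (42.7), *Bub1* (41.1), *Incenp* (38.2), *Bub3* (22.8), *Mad2l1* (11.9) and *Aurkb* (8.87). In IV 20% O2 oocytes the order was *Bub1b* (130.8 RPM per kb), *Aurka* (57.5), *Bub1* (28.3), *Ttk* (27.2), *Incenp* (24.96), *Aurkc* (21.6), *Bub3* (16.7), *Mad2l1* (12.5), *Mad1l1* (9.53) and *Aurkb* (4.35). The counting intervals of neighbours overlapped only for *Bub1* and *Ttk* in IV 20% O2 oocytes, and the spread between libraries is not known, so close neighbours, such as *Mad1l1* and *Bub1* in IV 5% O2 oocytes, are not shown to differ. *Mad1l1* went from place 9 in IV 20% O2 to place 5 in IV 5% O2 oocytes. With the longest RefSeq transcript as the length, *Bub1b*, *Aurka* and *Aurkb* stayed first, second and last in both columns and *Mad1l1* kept places 9 and 5. The place of *Mad2l1*, which has 8390 exonic bases in GENCODE but 2088 in RefSeq, was then 4 in IV 20% O2 and 8 in IV 5% O2 oocytes. *Bub3* moved from place 7 to 3 in IV 20% O2 and from 8 to 4 in IV 5% O2 oocytes, *Bub1* from 3 to 7 and from 6 to 9, and *Aurkc* from 6 to 8 and from 4 to 7, so the order of the middle places depends on the length used.

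**Figure D3:**
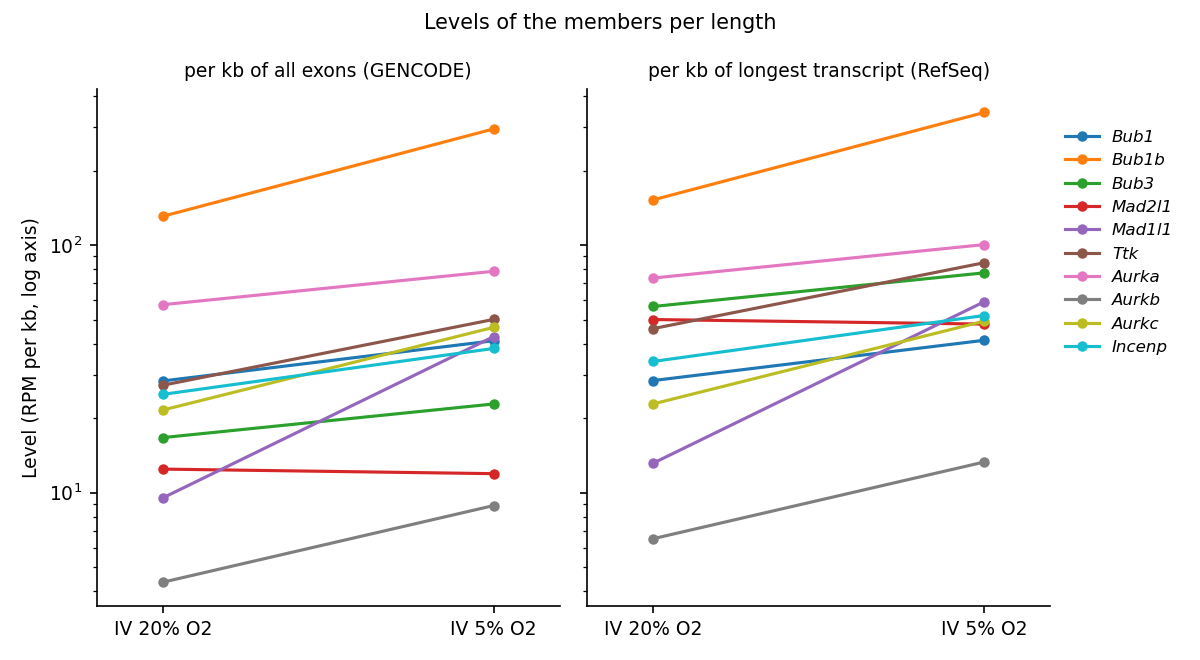
Level of each member in RPM per kb (log axis) in IV 20% O2 and IV 5% O2 oocytes, divided by all exonic bases in GENCODE (left) or by the longest RefSeq transcript (right), with 1 line per gene. *Bub1b* is at the top and *Aurkb* at the bottom in both panels, and the line of *Mad1l1* crosses those of several other members.

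The genes that work with the members were taken from 8 lists of 61 genes, of which 59 passed the limit of 1 RPM. Of these, 13 were at least 2-fold higher in IV 5% O2 oocytes (22.03%, against 18.7% of all genes tested) and 1 was 2-fold lower (against 9.22% of all genes tested). Their median log2 difference was 0.48, and 45 were higher (against 62.6% of all genes tested) and 39 above the median gene. The share that was 2-fold higher was thus close to the background. The counts in the single lists below are to be read against the same shares, 18.7% higher and 9.22% lower.

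Nearest to the members, the other passenger subunits did not reach 2-fold: *Birc5* (survivin), which places the complex at centromeres, was at 230.2 and 200.05 RPM and *Cdca8* (borealin) at 87.8 and 71.2 RPM, with a median log2 difference of 0.25 that equalled that of the median gene within 0.01. Among genes listed as activators and partners of Aurora A, 2 of 6 tested were 2-fold higher. They were *Tacc3* (987.5 against 466.3 RPM), which Aurora A phosphorylates at the spindle, and *Cep55* (132.5 against 42.3 RPM), a midbody protein. *Tacc3* was not past 2-fold under either rescaling of the columns. *Tpx2*, the main activator of Aurora A, was at 319.5 and 189.3 RPM. Of the outer kinetochore network of Knl1, Mis12 and Ndc80 complexes, to which the checkpoint kinases bind, 4 of 10 were 2-fold higher and none lower, and none of the 4 was past 2-fold under either rescaling of the columns. They were *Nuf2* (221.9 against 95.6 RPM) and *Ndc80* (120.4 against 53.1 RPM), which hold the microtubule, *Zwint* (105.9 against 47.9 RPM) and *Pmf1* (36.5 against 17.3 RPM).

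Among the genes that bring checkpoint proteins to kinetochores, 3 of 9 were 2-fold higher: *Cenpe*, a kinesin that binds BubR1 (188.6 against 62.3 RPM), *Sgo2a*, the shugoshin that protects centromeric cohesin in oocytes (78.9 against 33.9 RPM), and *Zw10*, a subunit of the complex that recruits dynein (93.0 against 42.0 RPM). *Zw10* was not past 2-fold under either rescaling of the columns. Of the 9 genes, 7 were higher by any size (against 62.6% of all genes tested). *Kntc1*, the gene of another subunit of that complex, went the other way (80.9 against 131.2 RPM). Among 5 tested genes of checkpoint silencing, 1 was 2-fold higher, *Anapc15* (166.9 against 49.3 RPM), an APC/C subunit needed to turn over the checkpoint complex. It was also the only one of 14 APC/C subunits that was 2-fold higher, whereas *Cdc26* was 2-fold lower (7.84 against 17.4 RPM), and the median log2 difference of the subunits was 0.29.

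The direct target of the checkpoint, *Cdc20*, was at 110.9 RPM in IV 5% O2 against 52.3 RPM in IV 20% O2 oocytes. *Fbxo5* (Emi1), an inhibitor of the APC/C, was at 170.5 and 74.9 RPM. Both were past 2-fold among 4 coactivators and inhibitors as deposited, and neither was under either rescaling. Of 10 substrates and M-phase kinases, 1 was 2-fold higher, the meiotic cyclin gene *Ccnb3* (34.1 against 6.46 RPM). With median-ratio scaling of the columns, 4 of the 59 genes were 2-fold higher (background 12.0%) and 4 lower (background 13.6%), and with quantile normalization 5 were higher (12.2%) and 2 lower (12.5%). The genes that were 2-fold higher under both were *Cep55*, *Cenpe*, *Anapc15* and *Ccnb3*, with *Sgo2a* added under quantile normalization. Those that were 2-fold lower under both were *Anapc1* and *Cdc26*, with *Anapc10* and *Kntc1* added under median-ratio scaling.

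**Figure D4:**
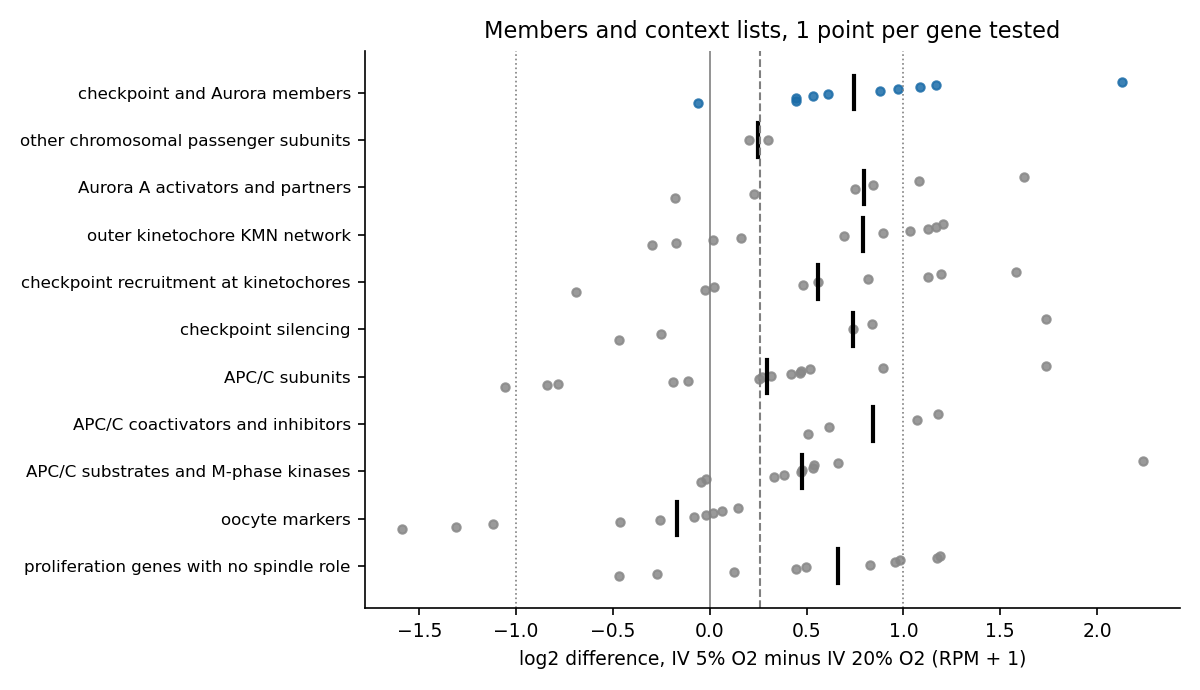
Difference between IV 5% O2 and IV 20% O2 oocytes (log2 of RPM + 1) for each gene tested of the members (blue), of the 8 lists of related genes, of oocyte markers and of proliferation genes (grey), with the median of each list as a black bar. The dashed line is the median of all genes tested and the dotted lines are 2-fold in either direction. The medians run from -0.17 for the oocyte markers to 0.84 for the coactivators and inhibitors of the APC/C, and the members' median is 0.74.

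Other gene groups were compared in the same way. Of 10 proliferation genes that are in none of the lists above, 2 were 2-fold higher (against 18.7% of all genes tested, and neither under a rescaling). They were *Mcm3* (138.7 against 60.4 RPM) and *Top2a* (123.2 against 54.0 RPM). None of the 10 was 2-fold lower, and their median log2 difference was 0.66. Of 10 oocyte markers none was 2-fold higher and 3 were 2-fold lower (against 9.22% of all genes tested), *Kit* (148.4 against 447.6 RPM), *Zp2* (1537 against 3807 RPM) and *Zp3* (690.0 against 1501 RPM), and the median log2 difference of the list was -0.17. Of 12 markers of theca and stroma, 9 were in the table, and those that passed the limit of 1 RPM did so mostly through IV 5% O2 oocytes, so no count past 2-fold is read from them. The summed level of the 9 was 39.3 RPM in IV 5% O2 against 4.99 RPM in IV 20% O2 oocytes, led by *Cyp11a1* (16.4 against 0.122 RPM), and *Vim*, *Col1a2* and *Dcn* had no read in IV 20% O2 oocytes. Of 10 granulosa markers 5 were in the table and summed to 38.7 and 29.0 RPM, with *Fshr* at 0 reads in IV 5% O2 and *Inha* at 0 reads in IV 20% O2 oocytes, and none of the 3 tested reached 2-fold. By their mean over both columns, the most abundant of them were *Nr5a2* (18.7 and 17.6 RPM) and *Kitl* (10.2 and 5.58 RPM). The part of these cells and of the proliferation genes in the members' differences was not tested.

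Base composition moved with the difference. With the 14679 tested genes that could be given an annotated gene split into 4 bins of nearly equal size by exonic GC content, the median log2 difference was 0.16 in the lowest bin and 0.45 in the highest. *Bub1*, *Bub3*, *Mad2l1* and *Ttk* were in the lowest bin and *Mad1l1* and *Incenp* in the highest. Relative to the median of its own GC bin, *Mad1l1* was at 1.68, *Bub1b* at 0.91, *Ttk* at 0.72, *Incenp* at 0.16 and *Mad2l1* at -0.22. For *Incenp* the value relative to the median gene was 0.35. Thus 9 members were still above the median of their bin, which by construction has as many genes above it as below, and 1 was 2-fold higher (background 11.3%). The part of base composition in these values was not tested further. By 4 such bins of exonic length the medians of all genes were 0.21, 0.33, 0.30 and 0.19, from the shortest to the longest.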

How the data were processed

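The authors aligned reads to mm10 (GRCm38) with TopHat (TopHat2 2.0.9 in the submitters' processing notes), merged reads over exons of an oocyte annotation in SeqMonk, by their methods with a correction for feature length, and deposited log2 values, 1 column per condition. How the 2 libraries were combined, and whether counting used the strand, is not given in the sources used here. The deposited log2 values are named RPKM, but 99.98% of the linear values were whole multiples (within 0.1 read) of 1 read's value, so, contrary to the stated correction, they were taken as RPM without it; genes without reads, listed at 0.9 of 1 read, were set to 0. The table also holds 1 value column of in vivo class IV oocytes, which belongs to none of the samples here and was not used, so no comparison with in vivo oocytes is made. A name with several rows was represented by its highest mean.

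Differences were taken on log2(RPM + 1) with Python 3.11.15 and scipy 1.17.1; code was tested on simulated data. Exon lengths came from GENCODE vM21, and 16401 of 16591 rows had exactly the coordinates of its genes, although the methods name an oocyte annotation. All members were named, and of each list the genes past 2-fold (at most 4), otherwise the 2 most abundant. The theca and stroma list was an exception: of its tested genes with reads in both columns, only *Cyp11a1* was named. *Tpx2*, *Kntc1*, *Anapc1*, *Anapc10* and the markers without reads were named after their values were seen. The 13 gene lists, of which the members are 1, were chosen with earlier results of these data known.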

Additional observations from a re-analysis of the deposited data

How the results depend on the processing

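Pseudocounts of 0.1 and 5 RPM, no filter, a minimum of 5 RPM, summed rows, division by exonic length, median-ratio scaling and quantile normalization were tried. Leaving out *Aurkc* and centring on the median of genes of like exonic GC content (4 bins) were added after the data were seen. No alternative turned the direction of a member, and 9 of the 10 stayed higher, or 8 of 9 without *Aurkc*. The number of members at least 2-fold higher went from 3 to 1 under median-ratio scaling, under quantile normalization and relative to genes of like GC content, and to 4 with the pseudocount of 0.1 RPM. The median log2 difference of the members (0.74) became 0.43, 0.53 and 0.54 in the first 3 of these, and 0.61 without *Aurkc*. Of the related genes, 4 and 5 instead of 13 were 2-fold higher with median-ratio scaling and quantile normalization, and 4 and 2 instead of 1 were 2-fold lower. With the pseudocount of 5 RPM, and after division by exonic length, 0 were lower. With median-ratio scaling, the medians of the passenger subunits (-0.066) and of the APC/C subunits (-0.018) turned negative. The scalings differ by construction, and the median gene shifts from 0.26 to -0.03 and 0.06, respectively. No paired analysis was possible because the table holds 1 pooled column per condition, which carries no replicate number, and for that reason the planned limma fit, the replicate block and leaving out each replicate were not run. The fewest reads behind a value were 524, those of *Aurkb* in IV 20% O2 oocytes. The counting interval of its read ratio (1.86 to 2.24) includes 2-fold, so depth limits whether this member is counted.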
